A study of Mus musculus with 6 samples.

Results

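Synaptic and immunoglobulin-type adhesion molecules are cell surface proteins by which neurons and glia recognise and hold on to each other. The genes described here were taken by name alone: the neurexins, neuroligins, LRRTM, LRFN, ELFN and FLRT proteins, latrophilins, teneurins, LAR-type receptor phosphatases, contactins and contactin-associated proteins, the L1 family, NCAM, SynCAM (Cadm) proteins, every symbol that starts with Igsf, and every symbol that starts with Lrrc4. That gave 76 of the 23955 genes in the files. Of these, 67 belong to the named families, and 9 (Lrrc40 to Lrrc43 and Lrrc45 to Lrrc49) share only the letters Lrrc4 with the netrin-G ligands and are not of that family. The choice went by symbol and used no measured value, but earlier results of these data were known when it was made.

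The libraries hold ribosome-bound mRNA, 3 from the diencephalon and 3 from the cortical grey matter of mice aged 3 months of both sexes on a C57BL/6 background. The diencephalon was dissected without the tissue near the third ventricle, and the cortex was freed of meninges and white matter. All 6 libraries share 1 genotype, Slc1a3 +/- GFP+ Rpl22HA fl/fl, built from the tamoxifen-dependent Cre allele Slc1a3tm1(cre/ERT2)Mgoe, the line B6N.129-Rpl22 tm1.1Psam/J, whose floxed allele gains the tag, and the GFP reporter FVB.B6-Tg(CAG-cat,-EGFP)1Rbns, and all mice were gavaged 3 times with tamoxifen from 9 weeks of age. The Cre recombinase sits in the locus of the astrocyte glutamate transporter Slc1a3, so that after tamoxifen the ribosomal protein Rpl22 carries a haemagglutinin tag in cells that use this locus, and tagged ribosomes are pulled down with their mRNA. Each library pooled 3 mice, and unpurified tissue RNA was not analysed here, so a level cannot be read as enrichment in astrocytes.

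Most of these proteins work in pairs across a cell contact. Presynaptic neurexins bind neuroligins, LRRTM proteins and secreted cerebellins; netrin-G proteins bind the netrin-G ligands; latrophilins bind teneurins and FLRT proteins; and contactins with contactin-associated proteins and the glial form of neurofascin hold myelin loops to the axon beside the node of Ranvier. They were first studied in neurons, but astrocytes make several of them too, and astrocyte neuroligins are known to bind neuronal neurexins and to shape astrocyte branching.

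Library totals were 2078793, 1840344 and 1882261 expected counts in diencephalon replicates 1 to 3, against 2334237, 1946883 and 1733145 in cortical grey matter replicates 1 to 3. A count of 0 still allows a level of up to 1.31 to 1.86 CPM (counts scaled to a common library size) depending on the library, the equivalent of 3 counts, for counting error only. Cortical grey matter replicate 3 stood somewhat apart, with an SD of log2 CPM differences over all genes tested of 0.54 and 0.55 to the other cortical libraries, against 0.43 between those and 0.45 to 0.47 among diencephalic libraries. Of 12 astrocyte markers 7 were lower and 0 higher in diencephalon (summed level 15600 to 18300 CPM in diencephalon, 25790 to 32480 CPM in cortical grey matter), and none was at 0. Markers of other cells were present as well and differed between the regions: cortical excitatory neurons (983.5 to 1397 CPM in diencephalon, 5446 to 6430 CPM in cortical grey matter; 11 of 11 tested lower, Emx1 at 0), subcortical neurons (390.2 to 541.4 CPM and 36.7 to 39.9 CPM; 6 of 6 higher), oligodendrocytes (1850 to 2478 CPM and 850.9 to 1099 CPM; 9 of 10 higher) and meninges (828.4 to 1244 CPM and 4486 to 8184 CPM; 11 of 12 lower). Choroid plexus and ependymal markers were also higher in sum (294.3 to 410.2 CPM in diencephalon, 44.1 to 83.6 CPM in cortical grey matter; 5 of 7 tested higher and 1 lower), endothelial and mural markers were lower in sum (89.6 to 123 CPM and 169.6 to 294.9 CPM; 2 of 5 lower), and microglial sums overlapped (370 to 670.7 CPM and 525.3 to 1246 CPM; 2 of 9 lower). Some markers had enough counts to be tested through 1 region alone and so could only be called in its direction. Among them were Pmch and Th (0 counts over the cortical libraries) and Otx2 (3) on the higher side. Neurod6 (6 counts over the diencephalic libraries) and Omd (4) were such markers on the lower side. Of the 12 subcortical neuron markers listed, only 6 were tested. The sums take all listed markers. The part of these cells in the results below was not tested, and fewer cells of a type cannot be told apart from less RNA per cell in such libraries.

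Across the family as a whole more genes were higher in diencephalon than lower. Of the 76 genes, 63 had enough counts to be tested; 22 were higher in diencephalon, 6 were lower and 35 did not pass (quasi-likelihood test in edgeR, adjusted after Benjamini and Hochberg over all 10568 genes tested, threshold 0.05). The higher group was 34.9% of the tested adhesion genes, against 14.9% of all genes tested, and the lower group was 9.52%, against 14.8% of all genes tested; in either direction 44.4% were called, against 29.6%. In 27 adhesion genes each diencephalic library had more than each cortical one, and in 9 each had less; over all genes tested such separation was seen in 42.6% (21.8% on the higher and 20.8% on the lower side). The median log2 difference (diencephalon minus cortical grey matter) was 0.27 over the tested adhesion genes and 0.01 over all genes tested.

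The split between higher and lower moved with the scaling. Transcripts of the tested adhesion genes are long (median 5002 bases, against 3291 for all genes tested). With the trend on length removed from the fit 20 were higher and 11 lower, and the median was 0.16. Of called adhesion genes 64.5% were then higher in place of 78.6%, and of all called genes 46.1% in place of 50.2%. In that fit 31.7% of the tested adhesion genes were higher, against 12.8% of all genes tested. The lower group was 17.5%, against 15% of all genes, and so no longer fell below the share of all genes. On the deposited per-length scale, TPM (abundance scaled by transcript length and library size), 28 were higher and 2 lower (93.3% of those called higher). That fit, on log2(TPM + 1), took genes by mean TPM, so that 73 adhesion genes and 14296 genes in all were tested. Of all genes called in it, 68.9% were higher. The higher group was 38.4% of the tested adhesion genes, against 14.8% of all genes, and the lower group 2.74%, against 6.7%. The median there was 0.48 for the adhesion genes and 0.22 for all genes. Relative to all genes the adhesion genes' median was 0.26 in the count fit, 0.26 on the log2(TPM + 1) scale and 0.17 with the length trend removed. Dropping diencephalon replicate 1 brought the lower group to 3 (4.76%, against 13.1% of all genes tested in that fit). Without cortical grey matter replicate 3 there were 24 higher (36.9%, against 15.2% of all genes tested) and 5 lower (7.69%, against 15.3%). Igsf1, Igsf9 and Cntnap4 passed the count filter through the diencephalic libraries alone and so could only be called higher. In the other 60, all libraries of both regions reached the minimum, and 19 were higher (31.7%) and 6 lower (10%). Of the 8743 genes that reached it in both regions, 14.3% were higher and 15.6% lower.

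**Figure D1:**
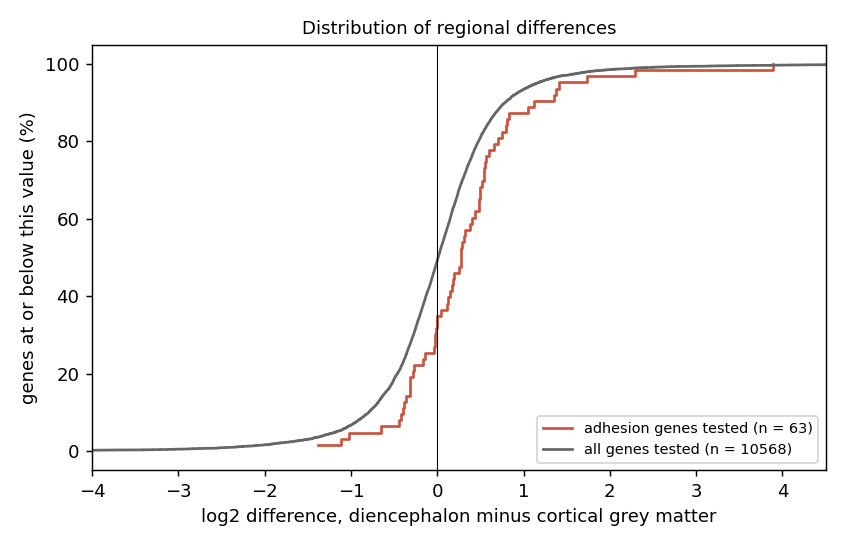
Share of genes (vertical axis, percent) at or below a given log2 difference between diencephalon and cortical grey matter (horizontal axis), for the 63 tested adhesion genes and for all 10568 genes tested. The curve of the adhesion genes lies to the right of that of all genes through the middle of the range, with medians of 0.27 and 0.01.

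**Figure D2:**
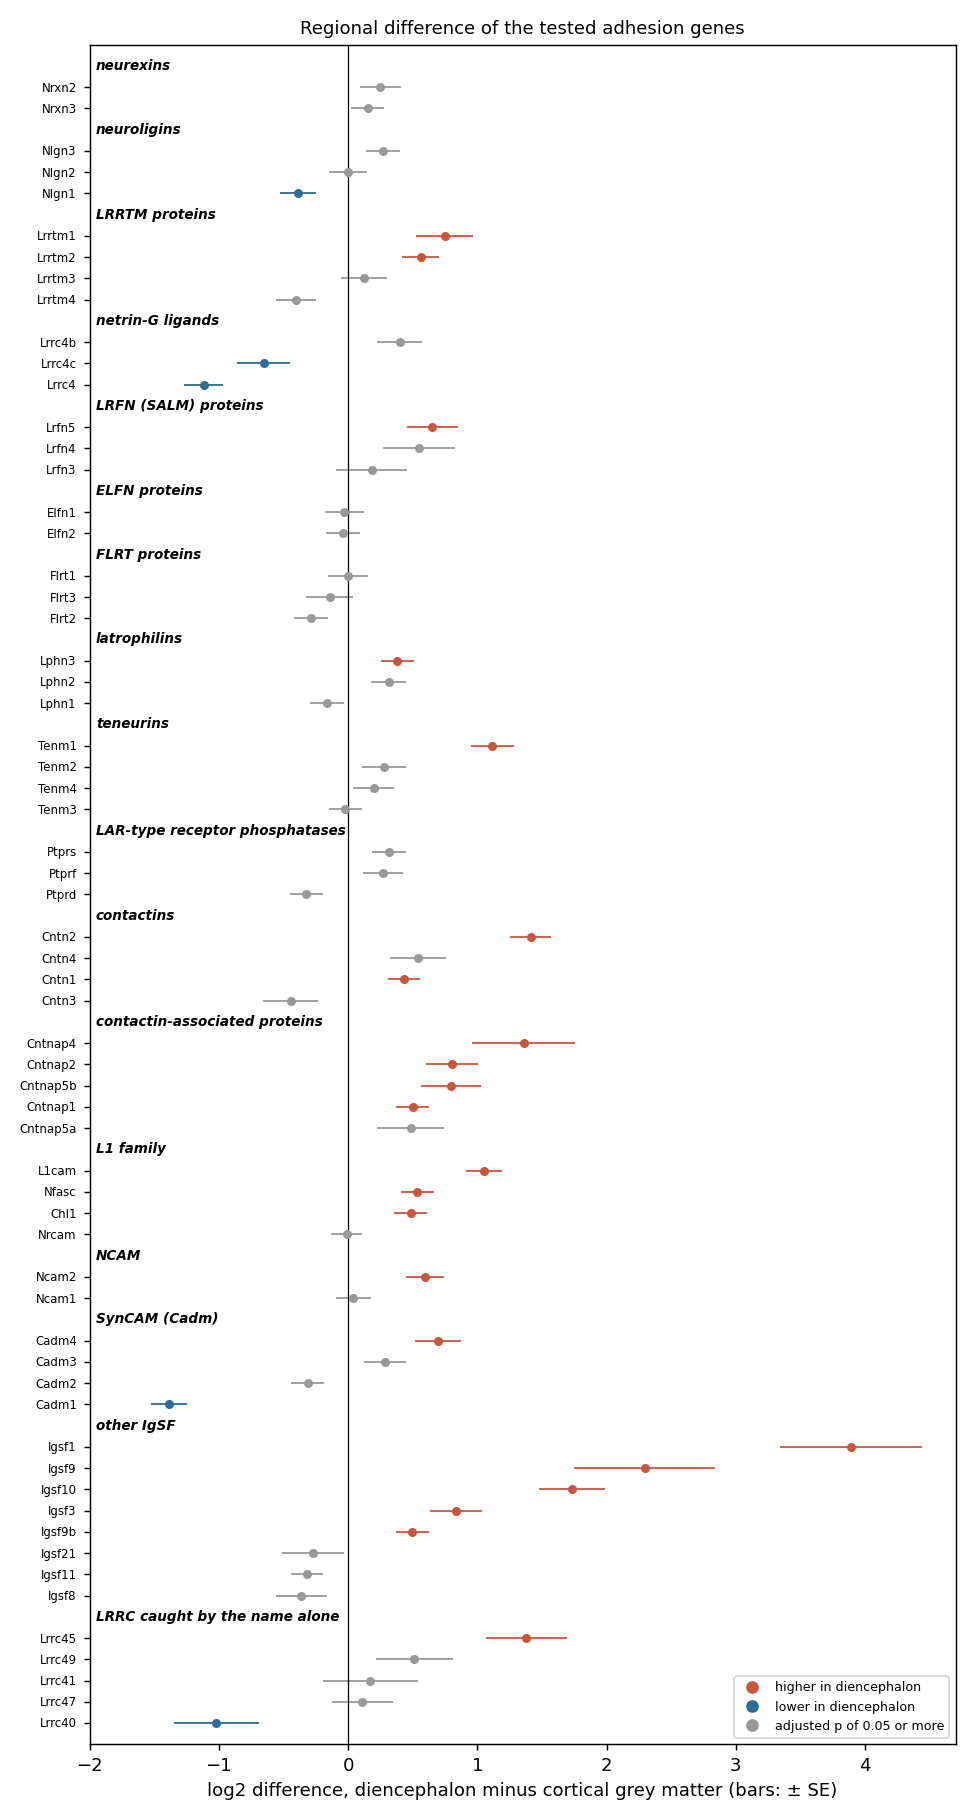
Log2 difference (diencephalon minus cortical grey matter) with its standard error for 62 of the 63 tested adhesion genes, grouped by family, with 22 higher and 5 lower genes in colour and the 35 that did not pass in grey. The contactin-associated proteins lie to the right of 0, while the netrin-G ligands lie on both sides.

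Summed over all 76 genes, the level in CPM was nearly the same in both regions: 10490, 10930 and 11280 in diencephalon and 10560, 10590 and 11100 in cortical grey matter. Per length, the sums were 6880, 7389 and 7650 TPM in diencephalon, above the 6118, 5904 and 6430 TPM of cortical grey matter. The gene with the highest level per length in both regions was Ncam1, the classical neural cell adhesion molecule, at 506.0 ± 39.3 TPM in diencephalon and 419 ± 59.7 TPM in cortical grey matter (SD, n = 3 each). Lphn1, a latrophilin, came next in both, at 382 ± 51.3 TPM and 371 ± 23.0 TPM. Ptprd was at rank 4 in diencephalon and 3 in cortical grey matter, and Cntn1 at rank 3 and 8. In all, 17 of the 76 genes averaged at least 100 TPM in both regions. The order changed most for Igsf1 (rank 13 in diencephalon, 60 in cortical grey matter), Lrrc4 (rank 39, against 16), L1cam (rank 12, against 28), and then equally for Cadm1 (rank 20, against 6) and Cntn3 (rank 34, against 20).

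The promoters of 4 genes are shown because these are the genes with the smallest adjusted p in each direction among those of the named families with a single start in the RefSeq table: Cntn2 and Igsf10, higher in diencephalon, and Lrrc4 and Lrrc4c, lower. Each is the stretch of 250 bases that ends just before the start of the gene, from RefSeq on GRCm38.p6, written along the strand of the gene. Capitals mark matches to the motifs searched.
Cntn2, chr1:132542941-132543190, minus strand: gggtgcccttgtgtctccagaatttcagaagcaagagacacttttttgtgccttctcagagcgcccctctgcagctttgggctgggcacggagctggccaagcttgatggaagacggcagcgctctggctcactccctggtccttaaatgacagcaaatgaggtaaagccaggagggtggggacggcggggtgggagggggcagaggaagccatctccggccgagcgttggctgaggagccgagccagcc
Igsf10, chr3:59344257-59344506, minus strand: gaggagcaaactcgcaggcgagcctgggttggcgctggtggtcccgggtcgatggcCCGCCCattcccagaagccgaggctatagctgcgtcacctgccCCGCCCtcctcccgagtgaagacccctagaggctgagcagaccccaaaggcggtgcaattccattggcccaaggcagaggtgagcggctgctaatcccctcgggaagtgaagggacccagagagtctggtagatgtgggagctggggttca
Lrrc4, chr6:28831748-28831997, minus strand: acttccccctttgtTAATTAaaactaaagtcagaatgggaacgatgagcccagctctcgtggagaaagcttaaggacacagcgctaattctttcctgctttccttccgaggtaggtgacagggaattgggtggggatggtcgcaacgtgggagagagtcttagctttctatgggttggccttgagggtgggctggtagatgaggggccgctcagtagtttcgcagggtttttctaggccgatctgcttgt
Lrrc4c, chr2:96317919-96318168, plus strand: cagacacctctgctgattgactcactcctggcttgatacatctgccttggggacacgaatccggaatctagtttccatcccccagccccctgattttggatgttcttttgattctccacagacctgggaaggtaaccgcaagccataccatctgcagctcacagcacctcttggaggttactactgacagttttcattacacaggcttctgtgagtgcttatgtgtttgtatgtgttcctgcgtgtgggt
Each motif was searched on both strands. The GC box was spelled GGGCGG in this search. A TATA box was taken as the letters TATAAA wherever they occurred. For the core of homeobox factor sites the search used TAATTA as its letters. The E-box was represented by CAGCTG, one of its common forms. The cyclic AMP response element (CRE) was TGACGTCA in full, and no motif contains another. The Igsf10 stretch held 2 GC boxes, both on the opposite strand, and the Lrrc4 stretch held 1 homeobox core. In Cntn2 and Lrrc4c none of these letters occurred. Among the 78 promoters that the table holds for 59 of the 76 genes, a GC box was found in 35.9%, against 32.7% of all 32851 promoters, a homeobox core in 3.8%, against 4.8%, and a TATA box in 6.4%, against 12.4%. An E-box was in 14.1%, against 13.0%, and a CRE in 1.3%, against 1.5%. The median GC content was 57.6% in promoters of the adhesion genes and 52.4% in all; of the 4 printed, Igsf10 had 64.0%, Cntn2 61.2%, Lrrc4 51.2% and Lrrc4c 49.6%. These matches describe the sequence and locate no binding site.

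Among the neurexins, the presynaptic receptors at the centre of this network, Nrxn2 and Nrxn3 did not pass. Nrxn2 averaged 78.4 ± 9.18 CPM in diencephalon and 65.5 ± 5.96 CPM in cortical grey matter (adjusted p = 0.251). Nrxn3 had 149.7, 161 and 139 CPM in diencephalon, against 135, 134 and 135 CPM in cortical grey matter, which do not overlap but differ by only 1.11-fold (adjusted p = 0.397; 0.0339 on the log2(TPM + 1) scale, 0.793 at most).

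Of the neuroligins, receptors for neurexins, 1 of 3 passed. Nlgn1, best known from excitatory synapses, had 108, 102 and 134 CPM in diencephalon and 145, 142 and 163 CPM in cortical grey matter. It was lower in all 3 diencephalic libraries than in any cortical one, by 1.31-fold (log2 -0.39 ± 0.14 SE, adjusted p = 0.0401). This was among the least stable calls: it was lost in DESeq2 (adjusted p = 0.0705), on the log2(TPM + 1) scale (log2 -0.19, adjusted p = 0.396) and when any library other than diencephalon replicate 3 was left out (0.119 and 0.183 without diencephalon replicates 1 and 2; 0.0631, 0.0571 and 0.068 without cortical grey matter replicates 1 to 3), in a range of 0.0123 to 0.396. Nlgn2, the neuroligin of inhibitory synapses, averaged 119 CPM in both regions (SD 10.5 in diencephalon and 19.3 in cortical grey matter, adjusted p = 0.995). Nlgn3, found at both kinds of synapse, made up the largest share of neuroligin TPM (58.0% ± 2.03 in diencephalon, 49.8% ± 4.44 in cortical grey matter), with 225, 257 and 263 CPM in diencephalon and 232, 204 and 180.1 CPM in cortical grey matter. Those ranges overlap (adjusted p = 0.125), and among the settings run the gene passed only on the TPM scales (adjusted p = 0.0357 for log2(TPM + 1) and 0.0379 for log2(TPM + 0.1); 0.339 at most).

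LRRTM proteins are postsynaptic leucine-rich repeat receptors of excitatory synapses. Of these, 2 of 4 were higher in diencephalon and 0 lower, against 14.9% higher and 14.8% lower among all genes tested. Lrrtm1 had 43.5, 42.2 and 46.5 CPM in diencephalon, against 17.9, 31.9 and 29.8 CPM in cortical grey matter, 1.68-fold (log2 0.75 ± 0.22 SE, adjusted p = 0.0127). Lrrtm2, which binds neurexins, had 214, 200.4 and 231 CPM, against 123, 135 and 181 CPM, 1.48-fold (log2 0.56 ± 0.14 SE, adjusted p = 0.00465). In both genes the regions did not overlap, although cortical grey matter replicate 3 came close for Lrrtm2. Lrrtm1 no longer passed when diencephalon replicate 3 (adjusted p = 0.0567) or cortical grey matter replicate 1 (0.109) was left out (range 0.00534 to 0.109). Lrrtm3 averaged 54.6 ± 7.72 CPM in diencephalon and 50.1 ± 1.89 CPM in cortical grey matter (adjusted p = 0.641). Lrrtm4, which binds glypicans, went the other way with 84.7, 74.3 and 92.0 CPM in diencephalon and 93.4, 104 and 137 CPM in cortical grey matter, values that do not overlap but missed the threshold (log2 -0.40 ± 0.16 SE, adjusted p = 0.0585). It passed without cortical grey matter replicate 1 (adjusted p = 0.0276), with no count filter (0.0416) and with the length trend removed (0.0309), in a range up to 0.488. As a share of the family's TPM, Lrrtm4 held 28.0% ± 1.44 in diencephalon and 41.9% ± 1.83 in cortical grey matter, while Lrrtm2 held 38.7% ± 0.93 and 29.8% ± 1.19.

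Of the netrin-G ligands, receptors of the netrin-G proteins, 2 of 3 were lower in diencephalon and 0 higher. Among all genes tested, 14.8% were lower and 14.9% higher. Ntng1, which encodes the membrane-anchored ligand netrin-G1 and is a partner of the adhesion genes, not one of the 76, had 179, 182 and 183 CPM in diencephalon and 31.0, 30.9 and 49.7 CPM in cortical grey matter. The diencephalic libraries were nearly alike and lay 4.94-fold above the cortical ones (log2 2.31 ± 0.17 SE, adjusted p = 9.27e-10). Its known receptor, NGL-1 or Lrrc4c, was lower there, at 183, 191 and 196 CPM in diencephalon, against 261, 212 and 428 CPM in cortical grey matter. The cortical values are spread widely, and the 1.57-fold difference (log2 -0.65 ± 0.21 SE, adjusted p = 0.0318) shrank to a log2 value of -0.32 without cortical grey matter replicate 3 (adjusted p = 0.0433). The Lrrc4c call was lost without diencephalon replicate 1, 2 or 3 (adjusted p = 0.0968, 0.0823 and 0.0878), with voom (0.0514) and on the log2(TPM + 1) scale (log2 -0.39, adjusted p = 0.258), in a range of 1.73e-05 to 0.268.

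Lrrc4, or NGL-2, the receptor for netrin-G2, was lower with no such dependence; the gene of netrin-G2 itself, Ntng2, had 31 counts over the diencephalic and 17 over the cortical libraries and was not tested. It had 64.1, 59.6 and 57.0 CPM in diencephalon and 116, 151 and 127 CPM in cortical grey matter. All diencephalic libraries were well below all cortical ones, 2.17-fold (log2 -1.12 ± 0.15 SE, adjusted p = 5.05e-06), and the log2 value lay between -1.21 and -0.90 over all settings. Lrrc4b, or NGL-3, which binds LAR-type phosphatases in place of netrin-G, averaged 71.4 ± 10.2 CPM in diencephalon and 53.6 ± 8.84 CPM in cortical grey matter, with overlapping libraries (adjusted p = 0.0928; 0.0335 on the log2(TPM + 1) scale, 0.329 at most). Lrrc4b made up 27.3% ± 2.74 of the TPM of the 3 receptors in diencephalon and 14.7% ± 4.45 in cortical grey matter.

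LRFN proteins, also called SALMs, are postsynaptic adhesion proteins that bind PSD-95 or LAR-type phosphatases. Lrfn5 was the 1 of 3 tested that passed, with 42.1, 54.3 and 45.5 CPM in diencephalon and 26.2, 29.8 and 34.8 CPM in cortical grey matter. Each diencephalic value was above each cortical value (1.57-fold, log2 0.65 ± 0.20 SE, adjusted p = 0.016), but the call was lost when diencephalon replicate 2 (adjusted p = 0.0958) or cortical grey matter replicate 1 (0.0897) was left out, in a range of 0.00759 to 0.0958. Lrfn4 averaged 19.7 ± 2.38 CPM in diencephalon and 13.2 ± 3.85 CPM in cortical grey matter (adjusted p = 0.149), and Lrfn3 21.4 ± 4.43 and 18.9 ± 5.76 CPM (adjusted p = 0.659). Lrfn1 and Lrfn2 had 27 and 14 counts over the 3 diencephalic libraries and 15 and 16 over the cortical ones, too few to be tested. In the ELFN and FLRT families no gene passed. Elfn2, a trans-synaptic partner of metabotropic glutamate receptors, had 219, 302 and 269 CPM in diencephalon and 276, 283 and 252 CPM in cortical grey matter, with overlapping libraries (adjusted p = 0.857). Elfn1, which recruits such a receptor to synapses, averaged 169.8 ± 33.4 and 174 ± 25.9 CPM (adjusted p = 0.907). Flrt2 had 208, 202 and 254 CPM in diencephalon, against 256, 249 and 305 CPM in cortical grey matter. The regions overlap for Flrt2 (adjusted p = 0.109; 0.0305 with the length trend removed, 0.72 at most), and Flrt1 (78.1 ± 7.28 CPM in diencephalon, 78.5 ± 9.01 CPM in cortical grey matter) and Flrt3 (95.9 ± 23.1 and 106 ± 22.6 CPM) were close to equal.

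Latrophilins are adhesion G protein-coupled receptors, and teneurins and FLRT proteins are their ligands across the synapse. Lphn3 had 165, 151 and 175 CPM in diencephalon, against 134, 124 and 117 CPM in cortical grey matter, 1.30-fold (log2 0.38 ± 0.13 SE, adjusted p = 0.0296). The libraries do not overlap, yet the call was lost in DESeq2 (adjusted p = 0.0599), with the length trend removed (0.105) and when any of 4 libraries was left out (diencephalon replicate 1, 0.0684; diencephalon replicate 3, 0.12; cortical grey matter replicate 2, 0.0911; cortical grey matter replicate 3, 0.0516), in a range of 0.0142 to 0.12. On the log2(TPM + 1) scale its log2 value was 0.58. Lphn2 averaged 122 ± 11.5 CPM in diencephalon and 98.0 ± 5.59 CPM in cortical grey matter (adjusted p = 0.0862; 0.0347 on the log2(TPM + 1) scale, 0.296 at most). Lphn1 held 67.6% ± 4.08 of latrophilin TPM in diencephalon and 75.1% ± 0.73 in cortical grey matter, and averaged 839 ± 106 CPM in diencephalon and 939 ± 44.5 CPM in cortical grey matter (adjusted p = 0.377). Among teneurins, Tenm1 had 88.4, 96.5 and 102 CPM in diencephalon and 43.2, 36.7 and 52.8 CPM in cortical grey matter. It was 2.17-fold higher with clear separation of the libraries (log2 1.12 ± 0.17 SE, adjusted p = 2.36e-05). Tenm2 averaged 235 ± 21.7 CPM in diencephalon and 194 ± 61.6 CPM in cortical grey matter and passed only without cortical grey matter replicate 3 (adjusted p = 0.247 with all libraries, 0.000906 without it, 0.693 at most). Tenm3 (199 ± 18.1 and 202 ± 14.9 CPM) and Tenm4 (104 ± 25.3 and 90.2 ± 3.14 CPM) did not pass. Tenm1 made up 18.1% ± 1.32 of the teneurin TPM in diencephalon and 10.1% ± 0.47 in cortical grey matter.

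LAR-type receptor phosphatases organise presynaptic terminals, and none of the 3 passed. Ptprd, with 62.3% ± 1.53 of the family's TPM in diencephalon and 71.9% ± 4.38 in cortical grey matter, had 795, 795 and 826 CPM in diencephalon and 963, 905 and 1152 CPM in cortical grey matter. The ranges do not overlap, but the adjusted p was 0.0678 (log2 -0.32 ± 0.13 SE); it fell under the threshold in DESeq2 (0.0451), with voom (0.0485) and with the length trend removed (0.0126), and reached 0.573 at most. Ptprs averaged 224 ± 13.0 CPM in diencephalon and 179 ± 27.4 CPM in cortical grey matter (adjusted p = 0.0727; 0.0259 without cortical grey matter replicate 1, 0.0304 on the log2(TPM + 1) scale, 0.259 at most). Ptprf averaged 102 ± 14.1 and 84.2 ± 11.7 CPM (adjusted p = 0.194).

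The contactins, their associated proteins and the L1 family contributed 9 of the 22 higher genes and none of the lower ones. These were 2 of 4 tested contactins, 4 of 5 tested contactin-associated proteins and 3 of 4 L1 family genes. Among all genes tested, 14.9% were higher and 14.8% lower. Cntnap4 passed the count filter through the diencephalic libraries alone and so could only be called higher. Cntn2, which with Cntnap2 forms the adhesion complex of the juxtaparanode and is made by neurons and oligodendrocytes, had 129, 118 and 123 CPM in diencephalon and 38.0, 49.0 and 52.8 CPM in cortical grey matter. The libraries are far apart, 2.67-fold (log2 1.41 ± 0.16 SE, adjusted p = 4.78e-07). Cntnap2 had 47.2, 43.2 and 62.7 CPM in diencephalon, against 31.9, 29.3 and 26.1 CPM in cortical grey matter (1.74-fold, log2 0.80 ± 0.20 SE, adjusted p = 0.00416). Cntn1 and Cntnap1 make up the axonal complex of the paranode. For Cntn1 the values were 518, 451 and 546 CPM in diencephalon and 344, 416 and 363 CPM in cortical grey matter, 1.35-fold (log2 0.43 ± 0.13 SE, adjusted p = 0.0127). For Cntnap1 they were 192, 210.4 and 178 CPM and 124, 149 and 138 CPM, 1.41-fold (log2 0.50 ± 0.13 SE, adjusted p = 0.00541). Neither gene overlapped between regions. The Cntn1 call was lost with the length trend removed (adjusted p = 0.0505), without diencephalon replicate 3 (0.0752) and without cortical grey matter replicate 1 (0.0736), in a range of 0.00716 to 0.0752.

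Nfasc encodes neurofascin, of which glia make the paranodal form and neurons the nodal form; the gene-level counts do not separate them. It had 402, 448 and 368 CPM in diencephalon and 239.5, 305 and 297 CPM in cortical grey matter, 1.45-fold (log2 0.54 ± 0.13 SE, adjusted p = 0.00321). L1cam, an axonal growth and adhesion molecule, had 223, 253 and 298 CPM in diencephalon and 116, 119.8 and 137 CPM in cortical grey matter. Every diencephalic library had more than any cortical one in both genes, and L1cam was 2.07-fold higher (log2 1.05 ± 0.14 SE, adjusted p = 3.63e-06). Its close relative Chl1 had 161, 169 and 179.8 CPM, against 112, 122 and 131 CPM (1.40-fold, log2 0.48 ± 0.13 SE, adjusted p = 0.00644). Nrcam, which clusters sodium channels at nodes, was the exception in its family, at 437 ± 25.2 CPM in diencephalon and 440.5 ± 35.9 CPM in cortical grey matter (log2 -0.01 ± 0.12 SE, adjusted p = 0.958). Nrcam held 34.4% ± 2.28 of the L1 family's TPM in diencephalon and 46.6% ± 3.84 in cortical grey matter, and L1cam held 28.6% ± 3.07 and 18.7% ± 1.77. Oligodendrocyte markers moved the same way as these axonal and paranodal genes: their sum was 2.23-fold higher in diencephalon, with 9 of 10 tested higher. Among them was the myelin gene Mbp (732 ± 104 CPM in diencephalon, 332 ± 40.7 CPM in cortical grey matter). Markers of oligodendrocyte progenitors went the other way in sum, at 236.7 to 267.9 CPM in diencephalon and 319.8 to 346 CPM in cortical grey matter. Among the 10 progenitor markers tested, 4 were lower and 1 higher in diencephalon. Of 12 pan-neuronal markers 3 were higher and 2 lower in diencephalon; their sum was 2780 to 2918 CPM in diencephalon and 3505 to 4739 CPM in cortical grey matter, of which Snap25 alone, a protein of synaptic vesicle fusion, gave 658 ± 60.1 CPM and 1543 ± 298 CPM. The part of these cell markers in the differences of the contactin and L1 genes was not tested.

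Among the other genes of these families, Cntnap5b had 29.5, 35.9 and 43.9 CPM in diencephalon and 25.7, 19.2 and 16.8 CPM in cortical grey matter (1.74-fold, log2 0.80 ± 0.23 SE, adjusted p = 0.0119). Cntnap4, linked in mice to transmission at interneuron synapses, had 8.89, 12.1 and 13.6 CPM, against 5.67, 4.79 and 2.48 CPM (2.56-fold, log2 1.36 ± 0.40 SE, adjusted p = 0.0124). Although their libraries do not overlap, both calls were lost without diencephalon replicate 3 (Cntnap5b adjusted p = 0.0893, range 0.00606 to 0.0893; Cntnap4 adjusted p = 0.0677, range 0.00867 to 0.0677). Cntnap5a averaged 19.2 ± 0.70 CPM in diencephalon and 13.7 ± 0.51 CPM in cortical grey matter (adjusted p = 0.172). Cntn3 was at 111 ± 11.6 CPM in diencephalon and 152 ± 56.7 CPM in cortical grey matter (adjusted p = 0.138) and passed with no count filter (0.013) and without cortical grey matter replicate 1 (0.0127; range up to 0.6). Cntn4 was at 49.3 ± 8.94 and 34.1 ± 10.2 CPM (adjusted p = 0.0651) and passed with no count filter (0.0438) and when diencephalon replicate 1 (0.0391) or cortical grey matter replicate 3 (0.00532; range up to 0.259) was left out. Cntn5, Cntn6, Cntnap3 and Cntnap5c were not tested, with sums of 18, 34, 25 and 41 counts in diencephalon and 27, 13, 7 and 24 counts in cortical grey matter.

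Of the NCAM genes, Ncam2 was higher and Ncam1 was not called. Ncam2 had 123, 98.6 and 133 CPM in diencephalon and 84.2, 75.1 and 75.2 CPM in cortical grey matter, with every diencephalic value above every cortical one (1.51-fold, log2 0.60 ± 0.15 SE, adjusted p = 0.00388). Ncam1 had 776, 654 and 703 CPM in diencephalon and 656, 807 and 611 CPM in cortical grey matter, with full overlap of the regions (log2 0.04 ± 0.13 SE, adjusted p = 0.851).

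The SynCAM proteins, immunoglobulin adhesion molecules that pair with themselves and each other across synapses and along axons, split by member. Cadm1 had the smallest adjusted p of the 63 tested adhesion genes: it had 163, 147 and 143 CPM in diencephalon and 445, 414 and 325 CPM in cortical grey matter. The highest diencephalic library had less than the lowest cortical one, and the difference was 2.61-fold (log2 -1.38 ± 0.14 SE, adjusted p = 7.98e-08), between -1.51 and -1.16 on the log2 scale over all settings. Cadm4, known from contacts between myelinating glia and axons, was the reverse, with 59.9, 58.0 and 57.0 CPM in diencephalon and 32.3, 35.7 and 40.4 CPM in cortical grey matter. Its diencephalic libraries were nearly equal and above all cortical ones (1.62-fold, log2 0.70 ± 0.18 SE, adjusted p = 0.00491). Cadm2 had 418, 375 and 477 CPM in diencephalon, against 532, 539 and 506 CPM in cortical grey matter, without overlap but short of the threshold (log2 -0.31 ± 0.13 SE, adjusted p = 0.0652). It passed with voom (adjusted p = 0.0497), with the length trend removed (0.0102), without diencephalon replicate 3 (0.0489) and without cortical grey matter replicate 3 (0.022), and reached 0.559 at most. Cadm3 averaged 131 ± 18.8 CPM in diencephalon and 108 ± 28.1 CPM in cortical grey matter (adjusted p = 0.21; 0.00874 without cortical grey matter replicate 3, 0.637 at most). As a share of SynCAM TPM, Cadm1 held 25.2% ± 1.85 in diencephalon and 48.0% ± 5.85 in cortical grey matter, while Cadm4 held 20.6% ± 0.64 and 9.37% ± 1.42; the shares of Cadm2 overlapped, at 31.4% ± 3.57 and 28.7% ± 0.35. Astrocyte, cortical excitatory neuron and meningeal marker sums were lower in diencephalon too, and oligodendrocyte ones higher, with the ranges given above; their part in the Cadm1 and Cadm4 differences was not tested.

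**Figure D3:**
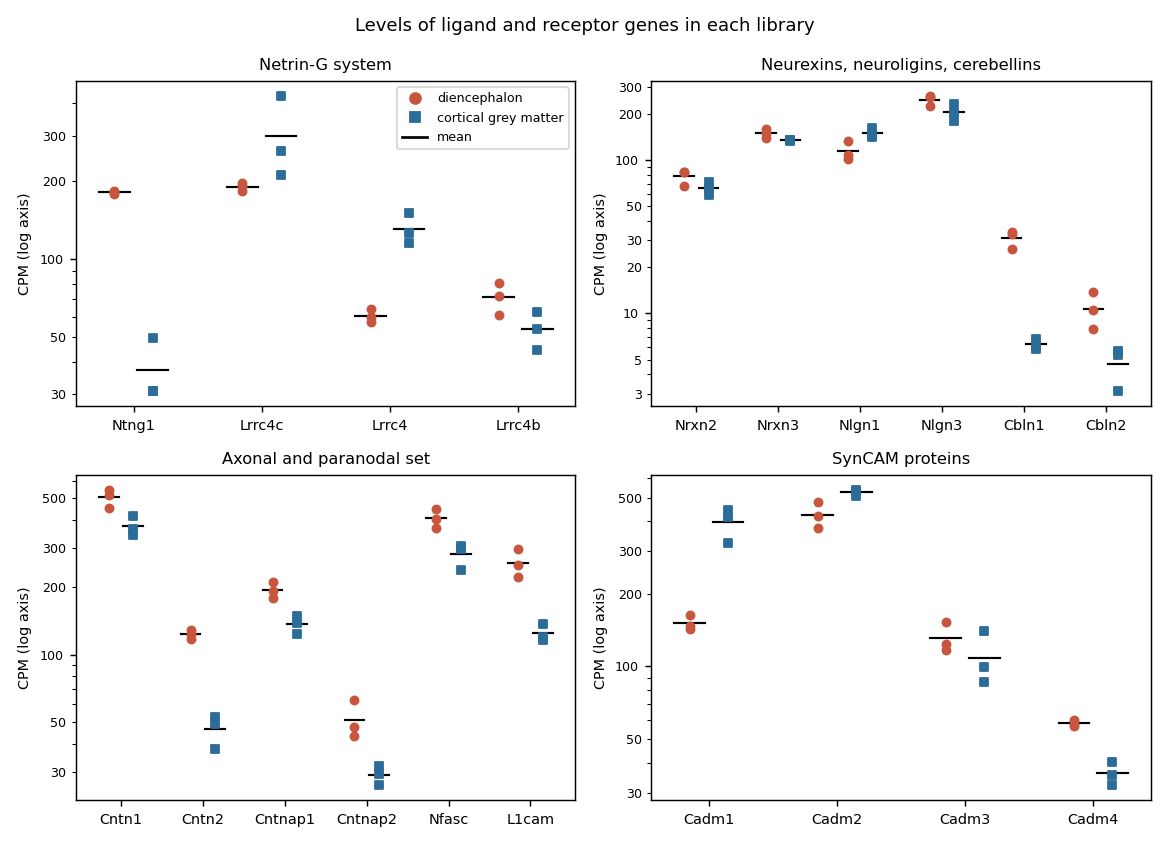
CPM in each library (points, logarithmic axes) with group means (bars) in diencephalon and cortical grey matter. The panels show netrin-G genes, some of the neurexins, neuroligins and cerebellins, some axonal and paranodal genes, and SynCAM genes. The axonal and paranodal genes drawn (Cntn1, Cntn2, Cntnap1, Cntnap2, Nfasc and L1cam) were all called higher. Nrcam and Nlgn2, which did not pass, are not drawn. Ntng1 is 4.94-fold higher in diencephalon, and the gene of its receptor, Lrrc4c, is 1.57-fold lower, a call lost under several settings. Lrrc4, the receptor gene for netrin-G2, is 2.17-fold lower. Cadm1 and Cadm4 lie on opposite sides.

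Of the 8 Igsf genes tested, 5 were higher in diencephalon and 0 lower, against 14.9% higher and 14.8% lower among all genes tested. Igsf1 and Igsf9 passed the count filter through the diencephalic libraries alone and so could only be called higher. The 3 largest log2 differences among the tested adhesion genes were those of Igsf1, Igsf9 and Igsf10. Igsf1, an X-linked transmembrane protein whose loss in humans causes central hypothyroidism, had 121, 109.7 and 126 CPM in diencephalon and 14.4, 7.45 and 0 CPM in cortical grey matter. Every diencephalic library had more than 100 CPM, while cortical grey matter replicate 3 had no count, which allows up to 1.86 CPM there. The fitted difference was 14.8-fold (log2 3.89 ± 0.55 SE, adjusted p = 0.00258); it moved to a log2 value of 4.87 without cortical grey matter replicate 1 and to 5.98 on the log2(TPM + 0.1) scale, where the call was lost (adjusted p = 0.144; range 5.89e-15 to 0.144). The choroid plexus and ependymal markers and the subcortical neuron markers were higher in diencephalon too, with the sums given above, and their part in the difference of Igsf1 was not tested. Igsf10 had 31.4, 50.6 and 56.4 CPM in diencephalon, against 10.9, 14.4 and 16.8 CPM in cortical grey matter. Its libraries do not overlap (3.32-fold, log2 1.73 ± 0.26 SE, adjusted p = 1.97e-05), and the promoter printed above is the one with 2 GC boxes. Igsf9, related to the fly gene turtle, was near the detection limit in cortical grey matter, with 6.55, 7.91 and 6.79 CPM in diencephalon and 1.31, 0.532 and 2.48 CPM in cortical grey matter (4.91-fold, log2 2.29 ± 0.54 SE, adjusted p = 0.00254).

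Igsf9b, an adhesion protein of inhibitory synapses, stood at 287, 343 and 331 CPM in diencephalon and 210.3, 218 and 253 CPM in cortical grey matter. The regions were separate, 1.41-fold (log2 0.50 ± 0.13 SE, adjusted p = 0.00469). Igsf3 had 48.2, 49.6 and 72.6 CPM in diencephalon and 30.5, 29.8 and 35.4 CPM in cortical grey matter (1.78-fold, log2 0.83 ± 0.20 SE, adjusted p = 0.00321). Igsf11, which binds PSD-95 and AMPA receptors, lay on the other side at 255, 242 and 254 CPM in diencephalon and 311, 286 and 341 CPM in cortical grey matter, without overlap but just short of the threshold (log2 -0.32 ± 0.12 SE, adjusted p = 0.0522). It passed at a minimum count of 30 (adjusted p = 0.0482), with the length trend removed (0.0174) and without cortical grey matter replicate 2 (0.0496), and reached 0.545 at most. Igsf8, a tetraspanin partner, averaged 44.5 ± 12.8 CPM in diencephalon and 56.9 ± 2.75 CPM in cortical grey matter (adjusted p = 0.18; 0.0356 without diencephalon replicate 2, 0.548 at most), and Igsf21, which binds a neurexin at inhibitory synapses, averaged 19.7 ± 1.23 and 23.6 ± 4.57 CPM (adjusted p = 0.429). Igsf6 was not tested, with 4 counts in diencephalon and 7 in cortical grey matter, and Igsf5 and Igsf23 had no count in any library.

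**Figure D4:**
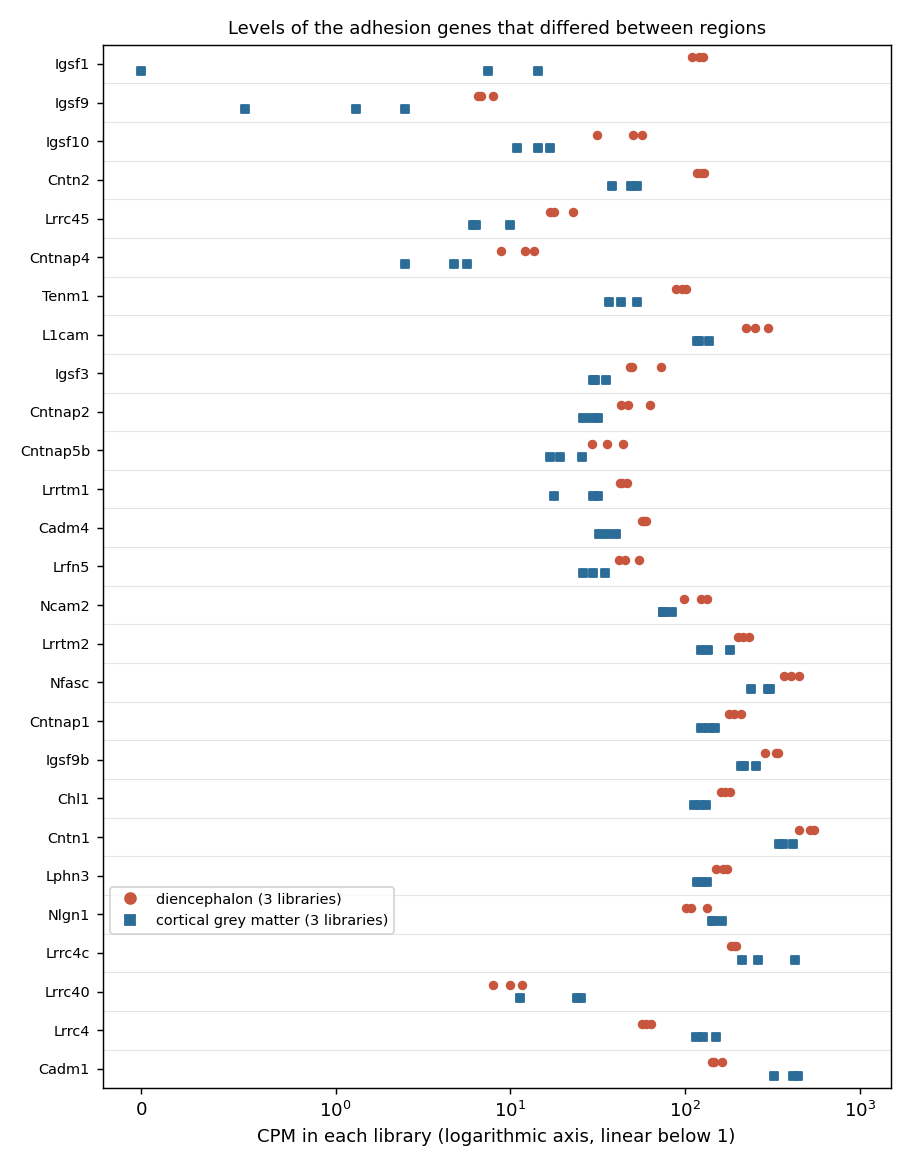
CPM in each library (logarithmic axis, linear below 1) of 27 of the 28 adhesion genes that differed between regions, ordered by their difference, with 3 diencephalic and 3 cortical grey matter libraries a gene. Igsf1 at the top ranges from 109.7 to 126 CPM in diencephalon and from 0 to 14.4 CPM in cortical grey matter; only for Lrrc40 do the regions overlap.

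Of the 9 genes caught by the letters Lrrc4 alone, 5 were tested. Lrrc45, a centrosome protein, had 17.8, 16.9 and 23.0 CPM in diencephalon and 6.11, 6.39 and 9.94 CPM in cortical grey matter, with no overlap (2.60-fold, log2 1.38 ± 0.31 SE, adjusted p = 0.00188). Lrrc40 had 7.95, 11.6 and 9.93 CPM in diencephalon, against 11.3, 24.0 and 25.5 CPM in cortical grey matter. Cortical grey matter replicate 1 lies among the diencephalic values, and the call of a lower level (2.03-fold, log2 -1.02 ± 0.33 SE, adjusted p = 0.0225) was lost with voom (adjusted p = 0.0531), on the log2(TPM + 1) scale (0.121) and when any of 4 libraries was left out (0.0878 for diencephalon replicate 1, 0.067 for diencephalon replicate 3, 0.102 for cortical grey matter replicate 2 and 0.067 for cortical grey matter replicate 3), in a range of 0.00308 to 0.127. Lrrc41 (26.6 ± 13.9 CPM in diencephalon, 22.9 ± 8.55 CPM in cortical grey matter), Lrrc47 (32.4 ± 8.91 and 29.9 ± 6.38 CPM) and Lrrc49 (23.0 ± 7.09 and 15.9 ± 6.07 CPM) did not pass, each with overlapping libraries. Lrrc42, Lrrc43, Lrrc46 and Lrrc48 were too low to test, with 27, 2, 8 and 19 counts over the diencephalic libraries and 25, 2, 1 and 16 over the cortical ones. Without these 9 genes the adhesion families held 21 higher (36.2%) and 5 lower (8.62%) genes of 58 tested, against 14.9% and 14.8% of all genes tested.

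Known ligands, co-receptors and scaffolds of these proteins, a list of genes outside the 76 chosen from general knowledge, lay on both sides. Of 58 in the files 50 were tested, and 13 were higher (26%, against 14.9% of all genes tested) and 16 lower (32%, against 14.8%) in diencephalon. Among these, Cbln2 and Cbln4 (28 and 29 counts over the cortical libraries) passed the count filter through the diencephalic libraries alone and so could only be called higher. Gpc3 (11 counts over the diencephalic libraries) passed it through the cortical libraries alone and so could only be called lower. Without cortical grey matter replicate 1 the lower group of partners was 10, where 12.7% of all genes tested were lower. On the log2(TPM + 1) scale it was 9, where 6.7% of all genes tested were lower. Beside Ntng1, the higher partners with the smallest adjusted p were Cbln1 and Gpc1. Cbln1, a secreted bridge between neurexins and delta-type glutamate receptors, had 34.1, 26.4 and 32.9 CPM in diencephalon and 6.11, 5.86 and 6.83 CPM in cortical grey matter. All diencephalic libraries exceeded all cortical ones by a wide margin (4.96-fold, log2 2.31 ± 0.28 SE, adjusted p = 1.39e-06). Gpc1, a glypican of the cell surface, had 29.9, 27.4 and 28.2 CPM in diencephalon, against 9.16, 6.39 and 9.32 CPM in cortical grey matter (3.42-fold, log2 1.77 ± 0.27 SE, adjusted p = 2.60e-05). On the lower side, Dlg2, the synaptic scaffold PSD-93, had 1341, 1571 and 1277 CPM in diencephalon and 3152, 3190.0 and 4278 CPM in cortical grey matter. It was 2.54-fold lower with wide separation (log2 -1.34 ± 0.15 SE, adjusted p = 7.30e-07). C1ql3, a secreted relative of the cerebellins, had 39.3, 58.0 and 65.3 CPM in diencephalon and 185, 209.8 and 305 CPM in cortical grey matter, and was 4.30-fold lower (log2 -2.10 ± 0.21 SE, adjusted p = 1.39e-06). Magi3, a scaffold that binds membrane receptors, had 80.9, 98.6 and 97.2 CPM, against 176, 195 and 179 CPM (1.99-fold lower, log2 -0.99 ± 0.13 SE, adjusted p = 5.88e-06).

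The files give for each gene the mean length of its transcripts weighted by their estimated abundance, which moves when the mixture of transcripts moves. Of 23 tested adhesion genes whose length varied between libraries, 3 had no overlap between the regions (13.0%), close to the 377 of 2715 such genes (13.9%) among all tested. Nrxn3 had 6192, 6200 and 6297 bases in diencephalon and 6764, 7015 and 6618 bases in cortical grey matter, shorter in each diencephalic library. Nrxn2 had 6404, 6423 and 6411 bases, against 6534, 6530 and 6660 bases. Ncam1 had 5277, 5316 and 5292 bases, against 5338, 5340 and 5511 bases. These lengths are estimates from short reads of whole genes and were not tested; which transcripts carry the shift was not analysed here.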

How the data were processed

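Ribosome-bound RNA was purified from HA-tagged ribosomes, amplified with the Ovation RNA-Seq System v2 and sequenced on an Ion Proton, per the labels' protocols; 3 libraries came from diencephalon and 3 from cortical grey matter. Per the submitters' processing notes, RSEM was run by the authors on mouse build mm9. Its version, the aligner and the strandedness setting were not given in the sources used here. The deposited expected counts are RSEM estimates, in which reads shared by similar or overlapping genes are split by model. Over all genes in the files, 3.64% to 3.99% of the values per library were not whole. That share is no measure of error, and the uncertainty of the adhesion paralogues was not measured. The deposited TPM values are scaled by effective length and library total, per the file headers; TPM was used for levels between genes, and the deposited FPKM values were not used further. The gene length in the deposited files, a score in bases, is the mean over transcripts weighted by abundance. The labels name no molecular identifiers, so counting floors cover counting error only.

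Expected counts were rounded, and 10568 genes passed filterByExpr (minimum count 10, edgeR 4.0.16, limma 3.58.1, R 4.3.3). TMM scaling was followed by a robust quasi-likelihood fit in edgeR with region as sole term, and p-values were adjusted by Benjamini-Hochberg over all genes tested, with a threshold of 0.05. CPM are counts over TMM library size, SDs are over 3 libraries, and standard errors come from the quasi-likelihood F statistic. The common biological coefficient of variation was 13.6%. The script was tested on simulated counts with known changes. The adhesion genes, the partner list and the marker lists were chosen with earlier results of these data known, and no test was made over a list.

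Genes given with the value of each library are those past the threshold, the gene with the highest CPM of a family without any, and members that complete a family of at most 4; further genes are given as means. Partner genes are the 3 with the smallest adjusted p in each direction; Cbln2, drawn in a plot, and the marker Mbp were chosen after their values were seen. An adhesion gene that was called is counted but not reported on its own here. Settings varied were RLE in place of TMM, the count filter dropped or raised to 30, limma voom, DESeq2 1.42.0, a replicate block, an offset for a length trend (spline, 5 degrees of freedom), limma on TPM (mean of 1 or more; pseudocount 1 or 0.1, log2), and each library left out once. Promoters came from RefSeq on GRCm38.p6, matched by symbol, and no coordinates of the authors' build were used. Each library is a pool of 3 mice. Whether equal replicate numbers in both regions stand for the same mice is not stated in the labels.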

Additional observations from a re-analysis of the deposited data

How the results depend on the processing

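Of the 28 adhesion genes called, 17 kept their call under every alternative run and 11 lost it under at least 1, and none of the 28 changed direction; the losses stand beside the genes named in the report. Of the 35 not called, 15 passed under at least 1 alternative and 13 changed sign under at least 1. The values of those 13 are given below, and Lrrc41 among them ran from -0.29 to 0.50. The count of adhesion genes lower in diencephalon was 6 of 63 tested in the report. On both TPM scales it was 2 of 73 tested, and with the length trend removed 11 of 63. It ran from 3 to 7 when single libraries were left out. All genes lower in diencephalon numbered 958 on log2(TPM + 1) and 908 on log2(TPM + 0.1), of 14296 tested, against 1559 of 10568. They numbered 1583 with the length trend removed and 1186 to 1692 without single libraries. Lower partner genes numbered 9 on both TPM scales, against 16, and 10 to 17 without single libraries. The median log2 difference of the adhesion genes was 0.48 and 0.50 on the TPM scales and 0.16 with the length trend removed, against 0.27. Whether length or amplification sets these shifts was not tested.

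Deviations from the region means correlated at 0.059, -0.099 and 0.004 over genes for libraries of equal replicate number, 1 to 3. Libraries of unequal number gave -0.175 to 0.177. Deviations from a shared region mean are tied to each other, so these values cannot show whether equal numbers stand for the same mice. With the replicate number as a block, 23 adhesion genes were higher and 8 lower, and 1506 and 1531 of all genes; the block added the calls of Cntn3, Cntn4 and Lrrtm4 (adjusted p = 0.0488, 0.0468 and 0.0481). RLE scaling (22 and 6), voom (22 and 6), DESeq2 (21 and 6), an unfiltered table (23 and 8) and a minimum of 30 counts (20 and 6) stayed within 1.5 times of the main counts. Of all genes tested in those settings, 10.6% to 18.3% were higher and 10.6% to 18% lower.

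On the log2(TPM + 1) and log2(TPM + 0.1) scales Elfn1 at 0.16 and 0.16, Elfn2 at 0.15 and 0.15, Flrt1 at 0.19 and 0.20, Flrt3 at 0.068 and 0.069, Lphn1 at 0.032 and 0.032, Nrcam at 0.19 and 0.19 and Tenm3 at 0.18 and 0.18 turned positive. Flrt1 turned to 0.0074 (minimum count of 30) and 0.0011 (voom), Ncam1 turned to -0.052 (length trend removed) and Nlgn2 turned to -0.0070 (RLE size factors), -0.0032 (no count filter), -0.0072 (DESeq2) and -0.092 (length trend removed). Without single libraries the log2 difference ran for Elfn1 from -0.15 to 0.12, Elfn2 from -0.15 to 0.077, Flrt1 from -0.068 to 0.085, Flrt3 from -0.33 to 0.029, Lrfn3 from -0.037 to 0.37, Lrrc41 from -0.29 to 0.50, Lrrc47 from -0.13 to 0.29, Ncam1 from -0.044 to 0.16, Nlgn2 from -0.13 to 0.074, Nrcam from -0.079 to 0.032, Tenm3 from -0.090 to 0.043 and Tenm4 from -0.021 to 0.31. Of the 76 genes, 13 had too few counts to be tested.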
